A study of Mus musculus with 54 samples.

Results

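Angiogenesis and endothelial genes were described across 7 mouse tissues: 36 genes of 18759 gene symbols named by single-gene probe sets on the array. They were chosen by symbol, as ligands, receptors, targets and markers of blood vessels, through the annotation of the array platform, and each had 1 probe set. Total RNA was hybridised to Affymetrix Mouse Gene 1.1 ST arrays, on which each probe set sums the brightness of several short probes within a gene. The mice were C57BL6, a common inbred laboratory strain, 14 weeks old. Per the labels, the swim group swam for 3 weeks, in 2 sessions a day of 90 min with 4 h of rest between them. From an age of 11 to 12 weeks the animals had first been accustomed to it over 9 days, with 10 min added to each daily session. The labels carry no separate account of the handling of the control group and name no genetic change in either group. The 2 fat depots, brain, kidney and spleen had 4 control and 4 swim arrays each, muscle had 4 control and 3 swim arrays, and liver had 3 control and 4 swim arrays. The labels do not say whether tissues came from the same mice, or which muscle or fat depot was taken.

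New capillaries grow when tissue cells release VEGF ligands, which bind receptor tyrosine kinases on endothelial cells. Endothelial cells that respond most strongly raise the Notch ligand Dll4, and Notch signals in their neighbours restrain further sprouting, while angiopoietin 1 acting on the Tie2 receptor keeps formed vessels stable. Endurance exercise is known to enlarge the capillary bed of working muscle, and in fat the capillary bed grows and shrinks with the tissue.

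The promoters of 4 genes on which the comparisons below turn are shown first. Kdr and Robo4 rose in visceral fat and fell in spleen, Dll4 rose in visceral fat, kidney and muscle, and Cldn5 fell in visceral fat and spleen. Each sequence runs 5′ to 3′ on the gene's own strand from 250 bases before to 50 bases after the RefSeq start, and comes from RefSeq with build GRCm38.p6. Capitals mark matches, on either strand, to the letters CGGAA (a core of sites of ETS factors such as Erg), TGGGAA (a core of sites of the Notch partner RBPJ), ACAAT (a core of sites of SOX factors) and CACGTG (the E-box).
Kdr (chr5:75978406-75978705, minus strand): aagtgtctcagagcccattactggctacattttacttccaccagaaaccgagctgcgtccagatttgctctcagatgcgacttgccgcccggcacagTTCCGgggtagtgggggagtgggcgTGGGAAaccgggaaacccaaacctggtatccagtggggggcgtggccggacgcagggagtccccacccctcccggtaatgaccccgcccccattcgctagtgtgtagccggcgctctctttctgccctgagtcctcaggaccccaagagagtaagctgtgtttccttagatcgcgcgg
Robo4 (chr9:37401722-37402021, plus strand): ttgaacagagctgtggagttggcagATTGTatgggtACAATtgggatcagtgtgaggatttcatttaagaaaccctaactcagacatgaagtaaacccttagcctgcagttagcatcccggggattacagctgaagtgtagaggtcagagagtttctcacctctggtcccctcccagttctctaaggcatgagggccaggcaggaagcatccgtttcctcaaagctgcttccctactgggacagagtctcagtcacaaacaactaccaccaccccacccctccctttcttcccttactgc
Dll4 (chr2:119325534-119325833, plus strand): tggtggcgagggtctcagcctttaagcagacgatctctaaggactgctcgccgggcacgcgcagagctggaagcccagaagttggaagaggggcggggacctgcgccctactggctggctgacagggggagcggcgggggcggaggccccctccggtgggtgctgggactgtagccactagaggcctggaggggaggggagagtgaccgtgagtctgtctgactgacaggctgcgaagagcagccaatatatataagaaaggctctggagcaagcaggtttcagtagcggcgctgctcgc
Cldn5 (chr16:18776597-18776896, plus strand): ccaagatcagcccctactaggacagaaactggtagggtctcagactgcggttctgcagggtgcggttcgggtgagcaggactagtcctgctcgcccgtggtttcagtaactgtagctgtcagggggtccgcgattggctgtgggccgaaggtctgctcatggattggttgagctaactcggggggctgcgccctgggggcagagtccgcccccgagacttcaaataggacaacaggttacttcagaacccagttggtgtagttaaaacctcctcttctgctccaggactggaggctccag
Kdr held 1 CGGAA and 1 TGGGAA, which lay apart, Robo4 held 2 ACAAT, and the windows of Dll4 and Cldn5 held none of the 4. RefSeq promoters were at hand for 23 of the 36 genes, 29 windows in all. Of these windows 3 held CGGAA, 7 held TGGGAA, 6 held ACAAT and 0 held CACGTG. Over all 32851 promoters of 300 bases the shares were 29.9%, 25.6%, 31% and 7.15%. A match is a description of letters and not a measured binding site.

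Levels below are log2(signal + 16), quantile normalised within a tissue, and a difference is swim minus control on that scale, which understates the change of dim genes. Array medians lay between 45.92 and 118.65 signal units before normalisation, so scaling matters for every comparison. Most arrays carried the markers of their labelled tissue, but several subcutaneous fat arrays also carried those of other tissues. In swim replicate 22 the kidney marker Umod stood at 15.24, the level seen in kidney itself being 15.31, and in swim replicate 23 the muscle marker Ckm stood at 11.51. The B-cell list averaged between 8.94 and 11.22 on control replicates 18, 19 and 20 and swim replicates 22 and 23, against 5.14 to 5.63 on the other 3 subcutaneous arrays. In liver, Ckm stood at 8.32 on control replicate 52 and between 5.66 and 6.01 on the other liver arrays. The liver marker Alb was uneven elsewhere. In spleen it stood at 12.11 and 9.77 on control replicates 26 and 27 and at 9.64 and 9.98 on swim replicates 29 and 31, and between 4.61 and 6.18 on the others. In muscle it stood at 11.30 on control replicate 42 and 11.02 on swim replicate 46, and between 6.02 and 9.40 on the others. In visceral fat it stood at 9.96 to 10.05 on control replicates 1 and 2 and swim replicate 6 and at 7.22 to 8.34 on the others, and in kidney at 10.41 on swim replicate 15 and 7.27 to 8.19 on the others. The list of skeletal muscle fibres averaged 7.85 on brain control replicate 36 and 6.12 to 6.53 on the other brain arrays. The part of such RNA in the comparisons was not tested. In whole tissue, fewer endothelial cells and less RNA per endothelial cell cannot be told apart, and the same holds for rises.

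Of the genes that passed the test, most were higher in visceral fat, muscle and kidney of swim mice and most were lower in spleen. In visceral fat 14 of the 34 genes above the filter on dim probe sets rose and 3 fell, by limma at a Benjamini-Hochberg adjusted p under 0.05. No label states that arrays of a group came from separate mice, so the p-values measure the spread between these samples. The background there was 23.4% of 11463 genes called in either direction, 11.3% higher and 12.1% lower. In spleen 2 of 33 rose and 11 fell, with 14% of 11356 genes called, 7.04% higher and 6.97% lower. In muscle 9 of 35 rose and 0 fell, with 11.4% of 11347 genes called, 5.68% in each direction. In kidney 10 of 33 rose and 1 fell, with 24.4% of 11610 genes called, 10.8% higher and 13.6% lower. In liver 1 of 30 rose and 0 fell, with 4% of 11203 genes called, 1.84% higher and 2.16% lower. In brain 0 of 25 passed, with 0.482% of 11621 genes called, 0.43% higher and 0.0516% lower, and 9 of the 25 had an unadjusted limma p under 0.05, as did 16.3% of all genes. In subcutaneous fat 0 of 34 passed, as did 0% of 11548 genes, and 12 of the 34 had an unadjusted limma p under 0.05, against 21.6% of all genes.

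The median difference of the tested genes was 0.20 in visceral fat, where all genes had a median of -0.03. It was 0.29 in muscle against -0.02, -0.19 in spleen against 0.00, 0.06 in kidney against 0.00, 0.10 in liver against 0.00, 0.10 in brain against -0.02 and 0.53 in subcutaneous fat against 0.05. Scaling moved both members and background. With each array centred on its median, the visceral fat median was 0.03 against -0.22 for all genes. With values as deposited it was 0.15 against -0.10 in visceral fat, 0.09 against -0.23 in muscle, -0.44 against -0.27 in spleen, 0.18 against 0.11 in kidney and -0.02 against -0.20 in brain. The distance between the member median and that of all genes kept its sign under each of these scalings in those 5 tissues.

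**Figure D1:**
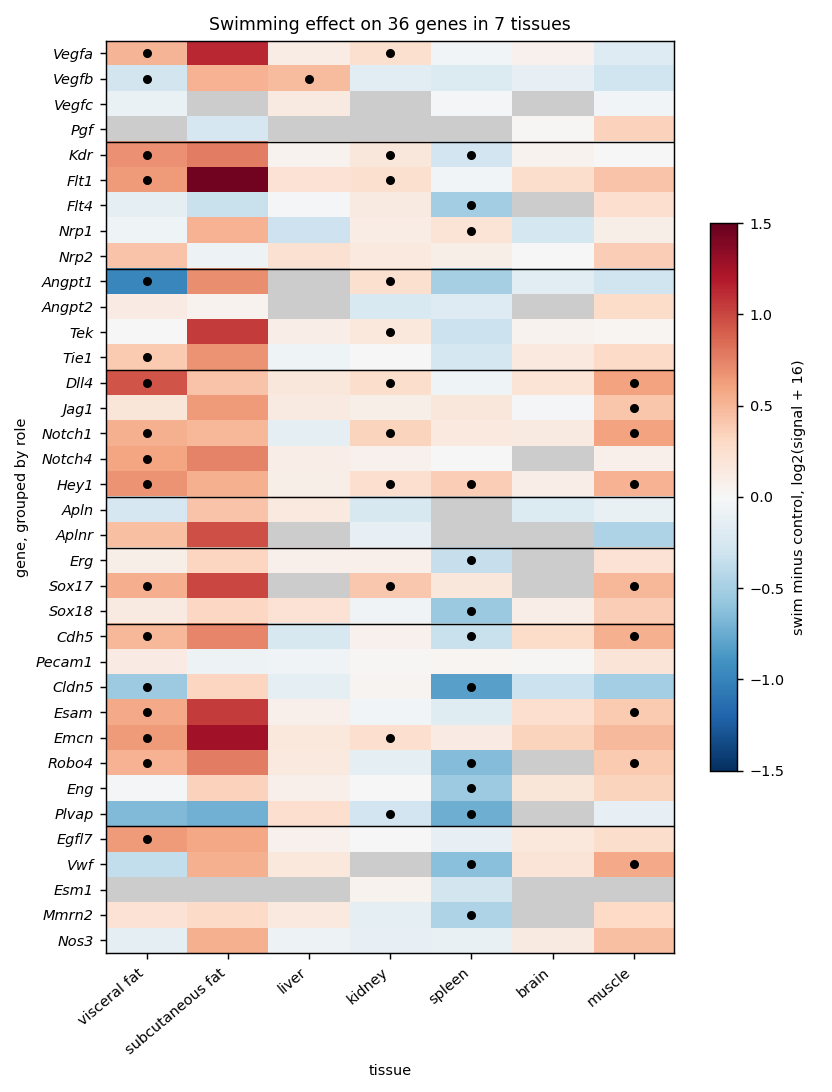
Swimming effect (swim minus control, log2(signal + 16)) for the 36 genes in rows, grouped by role, and the 7 tissues in columns. Red is higher and blue lower in swim mice, grey cells lay below the filter on dim probe sets, and dots mark limma calls at an adjusted p under 0.05: dots in the visceral fat column are mostly red (14 higher, 3 lower) and in the spleen column mostly blue (2 higher, 11 lower).

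Genes of the Notch group rose in visceral fat, muscle and kidney. Dll4 is the Notch ligand of sprouting endothelial cells, Jag1 a second ligand, Notch1 and Notch4 receptors, and Hey1 a transcription factor switched on by Notch. In visceral fat 4 of these 5 rose, where 11.3% of all genes did, in muscle 4 of 5, where 5.68% did, and in kidney 3 of 5, where 10.8% did. In spleen 1 of 5 rose, Hey1, where 7.04% of all genes did.

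Dll4 in visceral fat read 7.41, 7.41, 7.53 and 7.87 on the control arrays and 8.46, 8.39, 8.44 and 8.70 on the swim arrays. The lowest swim array stood well above the highest control array, and the difference was 0.94 ± 0.12 (SE; adjusted p = 0.00106), a 1.92-fold rise. In muscle Dll4 read 7.05, 7.17, 6.86 and 7.19 in controls and 7.27, 7.79 and 7.96 in swim mice. The groups did not overlap there but swim replicate 45 lay just above the controls, and the difference of 0.61 ± 0.16 passed narrowly (adjusted p = 0.0493). In kidney the rise was smaller, 0.26 ± 0.06, with controls between 7.47 and 7.67 and swim arrays between 7.75 and 7.95. In spleen Dll4 differed by -0.07 ± 0.08 with overlapping arrays.

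Hey1 was called higher in 4 tissues, more than any other gene of the set. Its control arrays in visceral fat read 7.05, 6.86, 6.61 and 7.27, its swim arrays 7.70, 7.78, 7.45 and 7.55, and the difference was 0.67 ± 0.14. In muscle the control arrays read 6.78, 6.75, 6.90 and 7.10 and the swim arrays 7.38, 7.30 and 7.53, a difference of 0.52 ± 0.10. In spleen, where most other called genes fell, Hey1 rose by 0.37 ± 0.07, with 6.27, 6.29, 6.42 and 6.30 in controls and 6.60, 6.68, 6.88 and 6.63 in swim mice. The kidney rise of 0.25 ± 0.08 had an adjusted p of 0.0487 and was lost under 8 of 10 other settings and without any 1 of control replicates 10 and 12 or the 4 swim arrays.

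Notch1 rose by 0.53 ± 0.13 in visceral fat, 0.61 ± 0.11 in muscle and 0.33 ± 0.07 in kidney. Its muscle arrays read 6.90, 7.28, 7.26 and 7.15 in controls and 7.58, 7.88 and 7.81 in swim mice, with no overlap. In spleen Notch1 differed by 0.14 ± 0.06 and did not pass. Notch4 rose by 0.60 ± 0.11 in visceral fat and by no called amount elsewhere, with 0.08 ± 0.12 in muscle and 0.00 ± 0.10 in spleen. Jag1 rose in muscle, by 0.41 ± 0.09, from 6.80 to 7.10 in controls to between 7.23 and 7.49 in swim mice, and differed by 0.18 ± 0.11 in visceral fat.

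**Figure D2:**
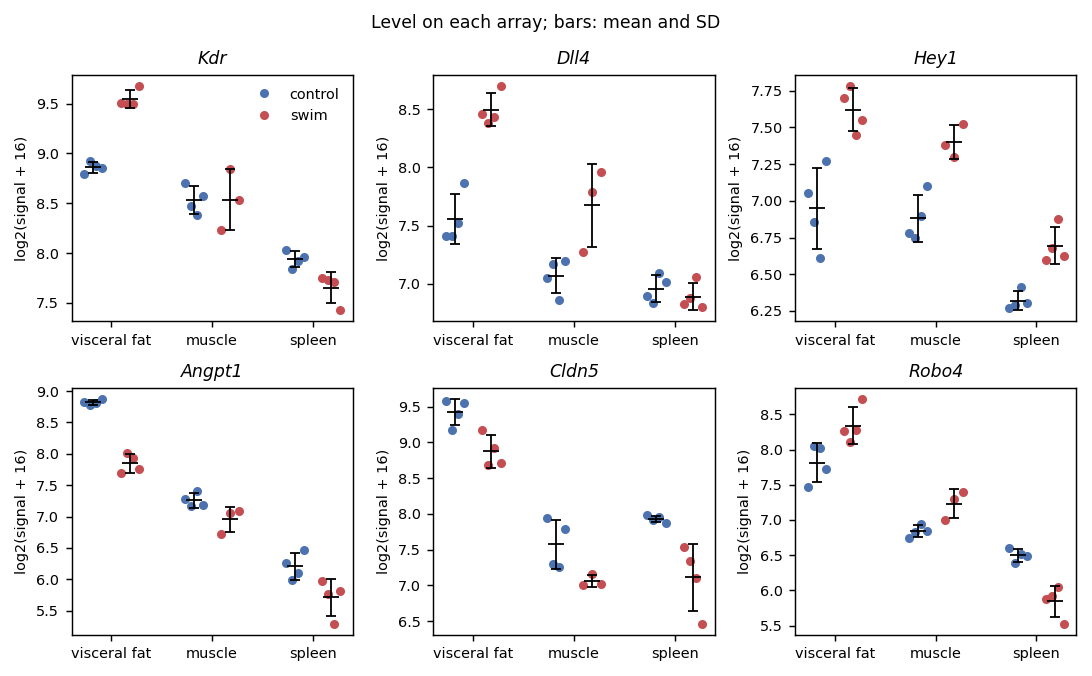
Level of 6 genes on each array (log2(signal + 16), 1 point per array) in visceral fat, muscle and spleen, control in blue and swim in red, with bars for mean and SD (n = 4, and 3 for swim muscle). Dll4 and Hey1 stood higher on the swim arrays of visceral fat and muscle, Angpt1 lower in visceral fat, Cldn5 lower in visceral fat and spleen, and Robo4 higher in visceral fat and muscle but lower in spleen, each past the threshold.

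Among the VEGF ligands, Vegfa and Vegfb moved apart in visceral fat. Vegfa, the main driver of vessel growth, read 10.10, 10.02, 10.40 and 10.33 in controls and 10.45, 10.65, 10.90 and 10.93 in swim mice, a rise of 0.52 ± 0.13 with swim replicate 5 only just above the controls. Without swim replicate 7 its adjusted p was 0.055. Vegfb, a ligand of VEGF receptor 1 that is abundant in tissues rich in mitochondria, fell by 0.28 on the log2 scale (SE 0.08, adjusted p = 0.0313), from 11.25, 11.25, 11.41 and 11.44 to 11.17, 10.96, 11.03 and 11.08. The Vegfb call was lost without any 1 of control replicates 3 and 4 and swim replicates 6, 7 and 8. In muscle neither ligand passed: Vegfa differed by -0.20 ± 0.09 and Vegfb by -0.30 ± 0.11, and the highest of the Vegfa swim arrays, 10.26, 10.43 and 10.39, stood level with the lowest control. Kidney Vegfa rose by 0.24 ± 0.06. Liver Vegfb rose by 0.48 ± 0.07 (adjusted p = 0.0174), the 1 call in that tissue, and was lost without control replicate 49, swim replicate 53 or swim replicate 54. Vegfc, the lymphatic ligand, and Pgf, a ligand of VEGF receptor 1, passed in no tissue in which they were tested, 4 tissues for Vegfc and 3 for Pgf. In visceral fat Pgf lay under the filter on dim probe sets, and with no filter it fell (-0.34, adjusted p = 0.0181).

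Kdr encodes VEGF receptor 2, which carries most of the growth signal, and Flt1 encodes VEGF receptor 1, which binds VEGF tightly and signals weakly. In visceral fat Kdr read 8.80, 8.92, 8.87 and 8.85 in controls and 9.50, 9.49, 9.50 and 9.68 in swim mice. The 2 groups were tight and far apart, and the rise was 0.68 ± 0.07 (1.6-fold, adjusted p = 0.000519). In spleen Kdr fell by 0.28 on the log2 scale (SE 0.08, adjusted p = 0.0489), from 8.03, 7.84, 7.92 and 7.96 to 7.75, 7.73, 7.71 and 7.43. That fall was kept when swim replicate 30 was left out and lost when any other 1 spleen array was. In muscle Kdr differed by 0.00 ± 0.14, with a 95% confidence interval from -0.32 to 0.33, and swim replicate 45 gave the lowest value, 8.23, and swim replicate 46 the highest, 8.84. Kidney Kdr rose by 0.17 ± 0.05 and kept its call only without control replicate 12.

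Flt1 rose by 0.63 ± 0.11 in visceral fat, from between 8.37 and 8.73 to between 8.97 and 9.39, and by 0.24 ± 0.05 in kidney. In muscle it differed by 0.42 ± 0.12 (adjusted p = 0.0533) and in spleen by -0.04 ± 0.08. Flt4, the lymphatic VEGF receptor 3, fell by 0.52 in spleen (SE 0.10), from 6.25, 6.44, 6.46 and 6.48 to 5.99, 5.90, 6.05 and 5.61, with no overlap. The co-receptors differed from that: Nrp1 rose by 0.20 ± 0.05 in spleen, a call kept only without swim replicate 32 and turned to -0.11 with values as deposited, and Nrp2 passed in no tissue.

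Angpt1 gave the largest fall of any of the 36 genes in visceral fat. The control arrays read 8.83, 8.78, 8.81 and 8.87 and the swim arrays 7.70, 8.02, 7.93 and 7.75, a fall of 0.97 on the log2 scale (SE 0.08, adjusted p = 0.000168, 0.509-fold). Every swim array lay well below every control array. In kidney Angpt1 rose by 0.24 ± 0.06, from between 7.03 and 7.25 to between 7.32 and 7.42. In spleen and muscle it did not pass, at -0.49 ± 0.15 (adjusted p = 0.0608) and -0.30 ± 0.11 (adjusted p = 0.099), though arrays did not overlap in either. Angpt2, the antagonist that loosens vessels, passed in no tissue. Tek, the Tie2 receptor of both ligands, differed by -0.01 ± 0.11 in visceral fat and rose by 0.16 ± 0.04 in kidney, keeping that call only without swim replicate 13 or 16. Tie1, the partner receptor of Tie2, rose by 0.40 ± 0.11 in visceral fat, a call lost without any 1 of control replicates 1, 3 and 4 and swim replicates 5 and 8.

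The apelin pair, a ligand and the receptor it uses on sprouting and venous endothelium, passed in no tissue in which it was tested. Aplnr differed by 0.45 ± 0.18 in visceral fat and by -0.46 ± 0.12 in muscle (adjusted p = 0.0502). Its 3 swim muscle arrays, 6.64, 6.84 and 6.64, all lay below the lowest control, 6.95. In spleen Aplnr lay under the filter, and its swim arrays, between 5.15 and 5.53, lay below its controls, between 6.11 and 6.46. With no filter Aplnr fell there (-0.82, adjusted p = 0.0108). Without swim replicate 32 it lay above the filter and also passed (-0.75, adjusted p = 0.0132).

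The transcription factors split. Sox17, a factor of arterial endothelium, rose by 0.54 ± 0.08 in visceral fat, 0.50 ± 0.12 in muscle and 0.40 ± 0.07 in kidney. In visceral fat it read 6.63, 6.70, 6.95 and 6.71 in controls and 7.24, 7.31, 7.32 and 7.31 in swim mice, without overlap. In spleen Sox17 differed by 0.17 ± 0.11. Erg and Sox18, which keep endothelial identity and shape vessel growth, fell in spleen, by 0.34 (SE 0.08) and 0.56 (SE 0.11), and did not pass elsewhere. Sox18 in spleen averaged 7.09 ± 0.08 (SD, n = 4) on the control arrays and read 6.53, 6.66, 6.75 and 6.21 on the swim arrays, all below the controls, with swim replicate 32 lowest. The Erg call was lost without any 1 of control replicates 25, 27 and 28 and swim replicate 31, and the Sox18 call without control replicate 25.

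Among the 8 junction and surface proteins 4 rose and 1 fell in visceral fat, where 11.3% of all genes rose and 12.1% fell. In muscle 3 rose, where 5.68% of all genes did, and in spleen 5 fell, where 6.97% did. In kidney Emcn rose and Plvap fell, where 10.8% of all genes rose and 13.6% fell. Cdh5, the VE-cadherin of endothelial junctions, rose by 0.49 ± 0.08 in visceral fat and 0.54 ± 0.12 in muscle and fell by 0.34 in spleen (SE 0.06). Its values were 9.95, 10.04, 10.07 and 10.10 against 10.47, 10.46, 10.47 and 10.72 in visceral fat. They were 9.54, 9.40, 9.52 and 9.66 against 9.79, 10.24 and 10.16 in muscle. They were 8.45, 8.24, 8.36 and 8.37 against 8.11, 8.06, 7.98 and 7.92 in spleen. In each of these 3 tissues the swim and control arrays did not overlap. The rises depended on scaling: with values as deposited the difference was 0.21 in visceral fat (adjusted p = 0.659) and 0.25 in muscle (adjusted p = 0.494), and with arrays centred on their medians 0.09 and 0.36, none of them past the threshold. In spleen the fall passed under both, at -0.64 and -0.46. With values as deposited the median of all genes was itself lower in swim mice in these 3 tissues, a shift that works toward falls and against rises. The same holds in visceral fat with arrays centred on their medians.

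Robo4, an endothelial receptor that holds the barrier, rose by 0.52 ± 0.16 in visceral fat and 0.39 ± 0.10 in muscle and fell by 0.65 in spleen (SE 0.11, adjusted p = 0.00989). The spleen arrays read 6.60, 6.38, 6.51 and 6.49 in controls and 5.88, 5.92, 6.06 and 5.53 in swim mice. Both rises were narrow. The visceral fat call was lost without any 1 of control replicates 1 and 4 and swim replicates 5, 7 and 8. The muscle call was kept only without swim replicate 45.

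Cldn5, the claudin that seals endothelial tight junctions, went the other way from Cdh5 in fat. It fell by 0.55 in visceral fat (SE 0.13), from 9.58, 9.18, 9.39 and 9.55 to 9.18, 8.69, 8.93 and 8.71. Control replicate 2 and swim replicate 5 stood almost level, so the groups overlapped. It fell by 0.82 in spleen (SE 0.19), from 7.98, 7.91, 7.95 and 7.87 to 7.54, 7.34, 7.11 and 6.47, with swim replicate 32 far below the rest. The spleen call was lost without any 1 of the 4 controls or swim replicate 31. In muscle Cldn5 differed by -0.51 ± 0.17 and in brain by -0.32 ± 0.08, without overlap and without passing (adjusted p = 0.0902 and 0.13).

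Esam, an adhesion protein of endothelial contacts, rose by 0.56 ± 0.09 in visceral fat and 0.40 ± 0.09 in muscle. Emcn, a sialomucin of capillaries and veins, rose by 0.63 ± 0.15 in visceral fat and 0.25 ± 0.06 in kidney. Eng, a co-receptor for BMP ligands, fell by 0.54 in spleen (SE 0.10) and differed by -0.02 ± 0.18 in visceral fat. Plvap, which forms the diaphragms of fenestrated capillaries, fell by 0.73 in spleen (SE 0.11), from 8.88, 8.69, 9.03 and 8.81 to 8.27, 8.06, 8.28 and 7.87. It also fell by 0.29 in kidney (SE 0.05), from between 9.12 and 9.25 to between 8.82 and 8.99, while Emcn and Kdr rose there. In visceral fat Plvap did not pass, at -0.66 ± 0.28, and control replicate 2 read 8.94 where the other controls read between 7.44 and 8.06. Pecam1, a marker of all endothelium that is also found on leukocytes and platelets, passed in no tissue, with 0.12 ± 0.10 in visceral fat, 0.19 ± 0.12 in muscle and 0.02 ± 0.08 in spleen.

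Of the secreted and matrix proteins, Egfl7, a matrix protein laid down by endothelium, rose by 0.64 ± 0.08 in visceral fat, from between 8.79 and 9.02 to between 9.38 and 9.60. Vwf, the clotting factor stored in endothelium and platelets, rose by 0.57 ± 0.09 in muscle and fell by 0.62 in spleen (SE 0.13). Its muscle arrays read 6.88, 6.83, 7.16 and 7.09 in controls and 7.52, 7.54 and 7.62 in swim mice. In visceral fat Vwf differed by -0.37 ± 0.31, control replicate 2 standing at 9.63 and the other controls between 8.06 and 8.78. Mmrn2, a matrix protein that binds VEGF, fell by 0.46 in spleen (SE 0.07), from 7.48, 7.55, 7.61 and 7.48 to 7.17, 7.13, 7.07 and 6.92. Nos3, the endothelial nitric oxide synthase, passed in no tissue, with -0.13 ± 0.12 in visceral fat and 0.45 ± 0.13 in muscle (adjusted p = 0.0569). Esm1, a tip-cell product, was above the filter in 2 tissues and passed in neither. In visceral fat it lay under the filter, and with no filter it rose (0.51, adjusted p = 0.0371).

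**Figure D3:**
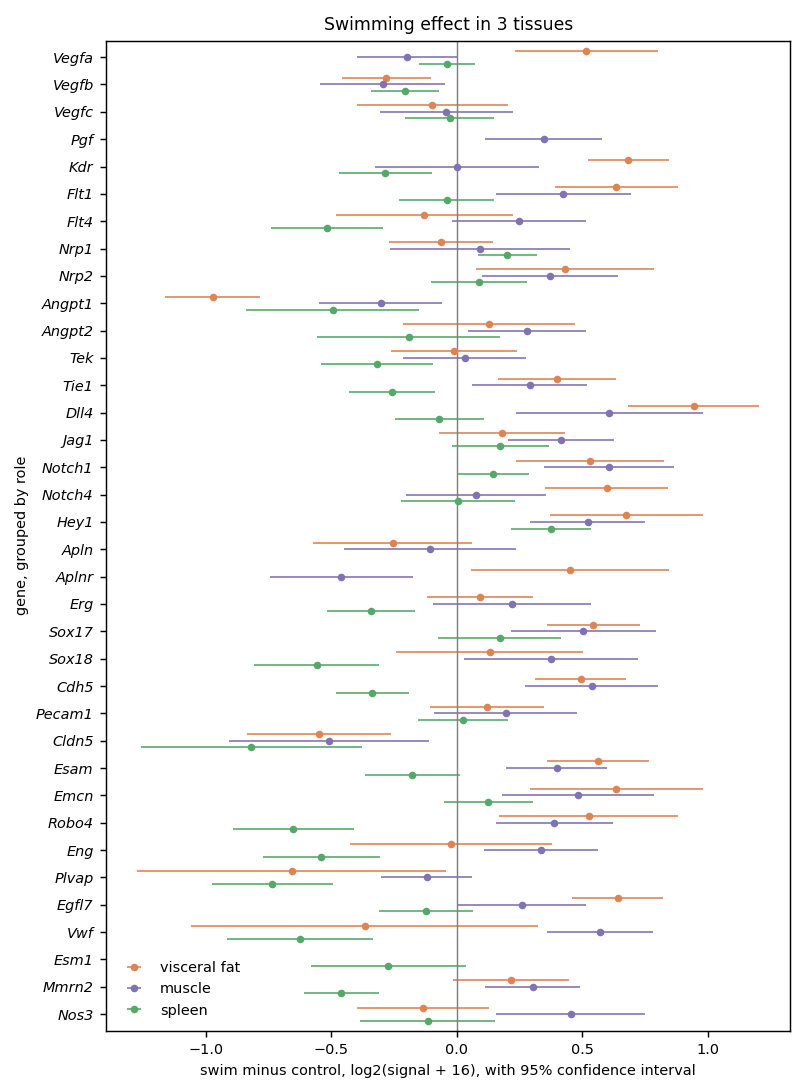
Swimming effect in visceral fat (orange), muscle (purple) and spleen (green) for each gene above the filter, as swim minus control on the log2(signal + 16) scale with its 95% confidence interval. The green intervals of Robo4, Sox18, Cdh5, Flt4 and Mmrn2 lie below 0, and those of Dll4, Kdr, Egfl7 and Esam in orange lie above 0.

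The difference between the swimming effects of 2 tissues was tested directly in 4 pairs of tissues, which share arrays, so that the pairs are not independent. The pairs were chosen with rises in visceral fat and muscle and falls in spleen already known. The direction of the counts against spleen is thus no independent evidence. The contrast treats all arrays as independent samples, though the labels do not say whether 2 tissues came from the same mice. Between visceral fat and spleen, 13 of 32 genes tested had a swimming effect that was higher in visceral fat and 0 had one that was lower, with 13.6% of 10231 genes called and 6.93% higher in visceral fat. The largest were Robo4 (1.18 ± 0.20), Dll4 (1.01 ± 0.14), Kdr (0.97 ± 0.11), Cdh5 (0.83 ± 0.10), Egfl7 (0.76 ± 0.12) and Esam (0.74 ± 0.13), each as the effect in visceral fat minus that in spleen. Sox18, Flt1, Mmrn2, Tie1, Notch4, Vegfa and Erg made up the rest. Of the 13, Kdr, Cdh5 and Robo4 were called in both tissues with opposite sign.

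Between muscle and spleen, 13 of 32 genes had an effect that was higher in muscle and 0 lower, with 13.3% of 9934 genes called and 6.54% higher in muscle. Vwf (1.19 ± 0.17), Robo4 (1.04 ± 0.16), Sox18 (0.93 ± 0.19), Eng (0.88 ± 0.15) and Cdh5 (0.87 ± 0.13) led. With values as deposited 3 of the 36 genes passed this test and with arrays centred on their medians 8 did. Between visceral fat and muscle, Aplnr (0.91 ± 0.23), Vegfa (0.71 ± 0.16) and Kdr (0.68 ± 0.17) were higher in visceral fat and Angpt1 (-0.67 ± 0.14) and Nos3 (-0.59 ± 0.18) lower, 5 of 34 genes tested, with 14.7% of 10502 genes called and 7.37% higher in visceral fat. That count is no more than the share over all genes gives, so it does not set these 36 genes apart. With values as deposited 1 of the 36 passed. Between visceral and subcutaneous fat 0 of 33 passed, as did 0% of 10889 genes.

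The firmness of the calls differed by tissue. In visceral fat Dll4, Hey1, Angpt1 and Cldn5 kept their calls under all 10 alternative settings and without any 1 array. With values as deposited 4 of the 17 visceral fat calls were kept, those 4, and Plvap passed in addition at -0.68. Under that setting limma gave all tested genes of the set the same SE in visceral fat, 0.221. Passing there thus rested on the size of the difference and not on the spread of each gene. With arrays centred on their medians 10 of the 17 were kept, Kdr, Flt1, Notch4, Sox17 and Egfl7 among them. In spleen Robo4, Eng and Mmrn2 kept their calls throughout, 11 of 13 calls were kept with values as deposited, where 21 of the 36 genes passed in all, and 5 of 13 were kept in 1 fit of all 54 arrays. With values as deposited the median of all spleen genes was itself lower in swim mice, which favours falls. Without control replicate 25, 7 of the spleen genes passed. In kidney 0 of 11 calls were kept with values as deposited or in 1 fit of all 54 arrays.

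In muscle no call was kept under all settings and array removals. Without swim replicate 46, 0 genes passed, without swim replicate 47 only 1, without control replicate 44 only 2, without control replicate 41 only 3 and without control replicate 42 only 4. With values as deposited 1 passed, which was none of the 9, and with array weights 22 passed. The share of all genes called under either setting is not given here. Of the array removals, 1 ended the Vwf call, that of swim replicate 46, and it was also lost with values as deposited and in 1 fit of all 54 arrays. Swim replicate 46 is 1 of the 2 muscle arrays with high Alb, and the part of that RNA was not tested. Notch1 was lost without control replicate 44 or swim replicate 46 or 47. Hey1 was lost without control replicate 41 or 43 or swim replicate 46 or 47. Dll4 and Cdh5, like Robo4, were kept only without swim replicate 45. Jag1 was kept only without control replicate 41 or swim replicate 45, and Sox17 and Esam only without control replicate 43 or swim replicate 45.

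Changes relative to Cdh5 on the same array, a measure chosen after the values were seen, show unequal change only. They are given on the normalised scale with the value as deposited after it, and with no test. In visceral fat Dll4 gained 0.45 relative to Cdh5 (0.67 as deposited) and Kdr 0.19 (0.29). Angpt1 changed by -1.47 (-1.28), Cldn5 by -1.04 (-0.93), Vegfb by -0.77 (-0.84), Nos3 by -0.63 (-0.53) and Nrp1 by -0.56 (-0.56). Swim arrays stood apart from control arrays on both scales for these 7 genes. For Hey1, Sox17, Notch4 and Egfl7 they did so only with values as deposited: Hey1 gained 0.18 on the normalised scale and 0.50 as deposited, Sox17 0.05 and 0.40, Notch4 0.10 and 0.37, and Egfl7 0.15 and 0.25.

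In spleen, where Cdh5 itself was lower, Hey1 gained 0.71 relative to it (0.84 as deposited), Nrp1 0.54 (0.54), Jag1 0.51 (0.53), Sox17 0.51 (0.71), Notch1 0.48 (0.47) and Emcn 0.46 (0.68). Cldn5 changed by -0.48 (-0.43), Plvap by -0.40 (-0.40) and Eng by -0.20 (-0.21). In muscle Cldn5 changed by -1.05 (-0.95), Aplnr by -0.997 (-0.87), Angpt1 by -0.84 (-0.73), Vegfb by -0.83 (-0.83), Vegfa by -0.73 (-0.73), Plvap by -0.66 (-0.51) and Kdr by -0.53 (-0.49). The groups were apart on both scales for each of these genes of spleen and muscle.

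Subcutaneous fat gave larger differences than visceral fat for many genes, with none called. Flt1 read 8.12, 7.26, 7.06 and 7.17 on the control arrays and 9.31, 8.67, 8.34 and 9.09 on the swim arrays, a difference of 1.45 ± 0.30 (adjusted p = 0.203). Emcn read 8.39, 7.85, 8.47 and 8.06 in controls and 9.25, 10.20, 8.91 and 9.43 in swim mice, a difference of 1.25 ± 0.28. The array with kidney markers, swim replicate 22, gave the highest Emcn, and kidney is the tissue with the highest Emcn in control mice. Esam differed by 1.04 ± 0.28, Kdr by 0.76 ± 0.20 and Robo4 by 0.76 ± 0.27. These 5 genes were those of the set whose arrays did not overlap, all higher in swim mice, where 3.54% of all genes were higher without overlap.

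Leaving out swim replicates 22 and 23 gave 1.81 ± 0.33 for Flt1, 1.16 ± 0.24 for Emcn, 1.48 ± 0.26 for Esam and 1.02 ± 0.23 for Kdr, with 0 of the 36 genes past the threshold and an adjusted p of 0.282 for each of these 4. The 3 arrays with a low B-cell list were 1 control and 2 swim arrays. On them Kdr read 8.79 in control replicate 17 and 9.42 and 9.55 in swim replicates 21 and 24, and Flt1 read 8.12 against 9.31 and 9.09. Without control replicate 17, 16 genes passed, 15 higher and Plvap lower, at -0.97, and only controls with a high B-cell list were left. With array weights 27 passed and in 1 fit of all 54 arrays 23. Shares of all genes called under these settings are not given here, so the counts cannot be set against a background. Flt4 and Plvap were highest on control replicate 19, at 7.78 and 9.12, the array with the highest lymphatic endothelial list, 7.69, Flt4 being on that list too. The part of other tissue in these differences was not tested.

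**Figure D4:**
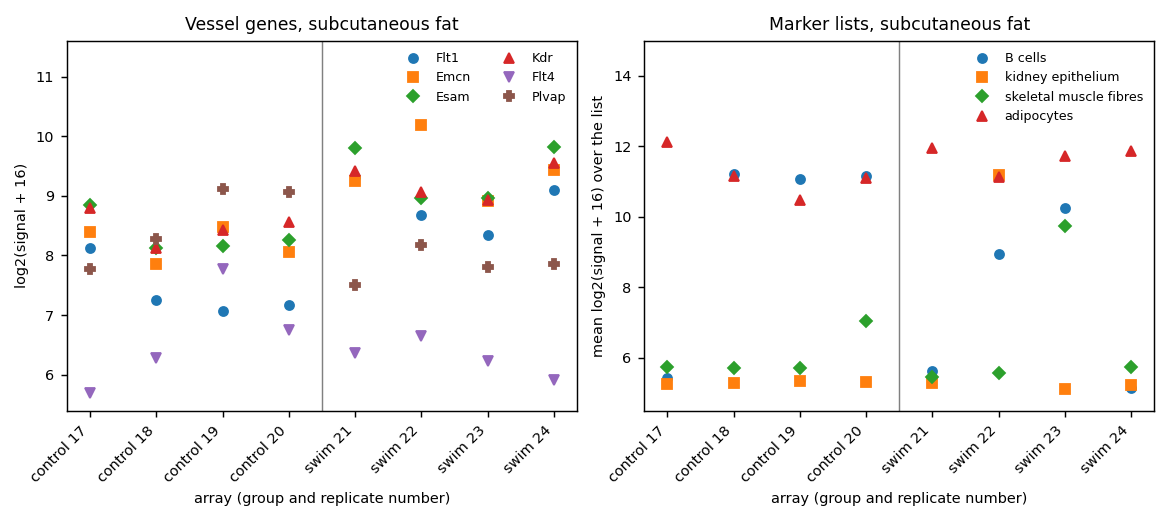
Left, 6 vessel genes on each subcutaneous fat array (log2(signal + 16)); right, the mean over 4 marker lists on the same arrays, control to the left and swim to the right of the line. Swim replicate 22 stands out in the kidney list (11.19), swim replicate 23 in the skeletal muscle list (9.73), and 5 of the 8 arrays in the B-cell list.

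Kidney rises were small and tight. The 10 genes that rose did so by 0.16 to 0.40 on the log2 scale, led by Sox17, which read 6.41, 6.16, 6.17 and 6.16 in controls and 6.70, 6.73, 6.48 and 6.60 in swim mice. In liver Plvap differed by 0.25 ± 0.07 and Nrp1 by -0.31 ± 0.12, neither passing. In brain no gene passed. Emcn differed there by 0.34 ± 0.08 (adjusted p = 0.0992), with controls between 7.54 and 7.82 and swim arrays between 7.93 and 8.11, and Flt1 by 0.26 ± 0.07 (adjusted p = 0.139). With array weights 11 genes passed in brain, Cldn5 lower and the other 10 higher. The share of all genes called with array weights is not given here.

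Other genes of the pathways came from lists by function. Those named are a choice from the up to 4 genes of smallest p past the threshold per list and tissue, and others of these are left out. The list counts are to be read against the shares over all genes, which were 11.3% higher and 12.1% lower in visceral fat, 5.68% either way in muscle, 10.8% and 13.6% in kidney and 7.04% and 6.97% in spleen. Of other endothelial genes 11 of 36 tested (30.6%) rose in visceral fat and 3 (8.33%) fell, with a list median of -0.03. This list also holds Tie1, a gene of the set itself. Tie1 counts among the genes tested in every tissue and among the 11 that rose in visceral fat. Cd93, an endothelial lectin-like receptor, rose by 0.84 ± 0.10 there and fell by 0.52 in spleen (SE 0.09) and by 0.33 in kidney (SE 0.06). Edn1, the vasoconstrictor endothelin 1, fell by 0.95 in visceral fat (SE 0.12). The adhesion receptors Adgrf5 and Adgrl4 rose by 0.72 ± 0.10 and 0.64 ± 0.09. In spleen 1 of 32 rose and 6 (18.8%) fell, with Selp, the P-selectin of endothelium and platelets, falling by 1.09 (SE 0.15). In muscle 4 of 36 (11.1%) rose and 1 fell, with a rise of 0.78 ± 0.19 for Sox7, a relative of Sox17. In kidney 9 of 37 (24.3%) rose and 5 (13.5%) fell, Calcrl, the receptor of adrenomedullin and CGRP, leading with 0.57 ± 0.06.

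Of the Notch pathway beyond the genes above, 2 of 21 rose and 2 fell in visceral fat, 9.52% each way, which is below the share over all genes. In muscle 4 of 20 (20%) rose and 1 fell, in kidney 4 of 19 (21.1%) rose and 2 fell, and in spleen 2 of 19 (10.5%) rose and 1 fell. Notch3, the receptor of pericytes and smooth muscle, rose by 0.75 ± 0.12 in visceral fat and 0.67 ± 0.06 in muscle. The genes of this list that fell in visceral fat were Rfng (-0.60 ± 0.14) and Heyl (-0.33 ± 0.10). Hes5 (-0.55 ± 0.12) fell in muscle, Rfng (-0.26 ± 0.05) and Rbpj (-0.23 ± 0.05) in kidney and Nrarp (-0.34 ± 0.06) in spleen. Of growth factor signalling, 6 of 26 (23.1%) rose and 0 fell in visceral fat. Cxcr4, a chemokine receptor of tip cells and leukocytes, rose by 1.06 ± 0.14, and Pdgfb, with which endothelium recruits pericytes, by 0.60 ± 0.10. Cxcl12, the ligand of Cxcr4, rose in visceral fat by 0.48 ± 0.10, in liver by 0.47 ± 0.08, in kidney by 0.61 ± 0.08 and in muscle by 0.45 ± 0.07. Of the same list 5 of 26 (19.2%) rose in muscle, 7 of 26 (26.9%) rose and 1 fell in kidney, and 2 of 24 (8.33%) rose and 2 fell in spleen, the lipoprotein lipase inhibitor Angptl4 at -1.005 ± 0.11 among them.

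Of guidance cues and angiopoietin partners, 4 of 17 (23.5%) rose and 5 (29.4%) fell in visceral fat, with Plxna2 at 0.62 ± 0.08 and the netrin Ntn1 at -0.77 ± 0.12. Ptprb, the phosphatase that dampens Tie2 and VE-cadherin signalling, rose by 0.66 ± 0.07 in muscle. Of inhibitors and matrix proteases, 7 of 15 (46.7%) fell and 1 rose in spleen, Thbs1, the inhibitor thrombospondin 1, by 0.97 (SE 0.17). In muscle Timp3, an inhibitor of matrix proteases and of VEGF receptor 2, rose by 0.83 ± 0.09, while the basement membrane collagen Col4a1 fell by 0.86 (SE 0.12). Timp3 also rose in visceral fat, by 0.62 ± 0.09, and in liver, by 0.80 ± 0.16.

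Markers of other cells moved in some of the same comparisons. Counts are of genes above the filter, and list means are over all genes of a list on the array. The counts are to be read against the shares over all genes. These were 11.3% higher and 12.1% lower in visceral fat, 5.68% either way in muscle, 10.8% and 13.6% in kidney and 7.04% and 6.97% in spleen. In spleen 9 of 10 megakaryocyte and platelet genes fell, Vwf being on that list too, and the list mean lay between 8.55 and 8.99 on control arrays and between 7.97 and 8.27 on swim arrays. All 8 neutrophil genes fell, from a list mean of 7.99 to 8.81 to one of 5.49 to 6.57, and 7 of 11 macrophage genes fell. Of 6 sinusoidal endothelial genes tested 1 fell, and the mean over the 7 on the array was 7.32 to 7.45 in controls and 6.86 to 7.27 in swim mice. B-cell genes did not pass, 0 of 7. In muscle 6 of 12 genes of pericytes and smooth muscle rose, and their mean was 8.30 to 8.46 in controls and 8.70 to 9.09 in swim mice. The adipocyte list in muscle spanned 6.74 to 8.28 in controls and read 7.75, 9.09 and 8.80 in swim replicates 45, 46 and 47, the last 2 being the arrays with the highest Cdh5, Dll4 and Robo4. In muscle 3 of 9 macrophage genes fell, with a list mean of 6.56 to 6.97 in controls and 6.35 to 6.48 in swim mice. In visceral fat 3 of 8 megakaryocyte and platelet genes fell, with a list mean of 6.66 to 6.92 in controls and 6.35 to 6.64 in swim mice, and 2 of 9 macrophage genes rose. There 4 of 12 genes of pericytes and smooth muscle rose and 1 fell, 0 of 7 adipocyte genes passed, and the lymphatic list was higher on control replicates 1 and 2, at 7.35 and 7.49, than on the other 6 arrays, at 6.62 to 6.90. In kidney 8 of 9 macrophage genes fell, and of 12 genes of pericytes and smooth muscle 5 rose and 1 fell. The part of these cells in the changes of vessel genes was not tested.

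Levels in control mice, normalised over all 54 arrays, differed by tissue and are given as a description. Of the 36 genes 19 were highest in visceral fat, 6 in kidney, 3 in subcutaneous fat, 3 in liver, 2 in brain, 2 in muscle and 1 in spleen. Kdr stood at 8.89 ± 0.10 (SD, n = 3) in liver, 8.86 ± 0.07 (n = 4 here and in the other tissues) in kidney, 8.76 ± 0.05 in visceral fat, 8.71 ± 0.12 in muscle and 8.52 ± 0.30 in subcutaneous fat, neighbours that overlapped. Spleen, at 7.91 ± 0.09, and brain, at 6.21 ± 0.12, lay below without overlap. Emcn was highest in kidney, at 10.44 ± 0.12, and lowest in spleen, at 5.96 ± 0.13. Cldn5 was highest in visceral fat, at 9.32 ± 0.18, and its brain level of 8.44 ± 0.17 overlapped that of subcutaneous fat, 8.63 ± 0.36. Plvap stood at 9.10 ± 0.06 in kidney and 8.97 ± 0.17 in spleen, which overlapped, and at 5.38 ± 0.54 in brain, whose capillaries lack fenestrae.

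Hey1 was highest in brain, at 9.73 ± 0.08, where neurons and glia also express Notch targets, and next in muscle, at 7.22 ± 0.15. Nos3 was highest in visceral fat, at 9.12 ± 0.17, which overlapped subcutaneous fat, at 8.31 ± 0.94, and lay between 6.10 and 7.08 in muscle, liver, kidney, spleen and brain. Flt4 and Vegfc, whose highest levels overlapped the next tissue, were highest in liver, at 7.82 ± 0.17 and 6.48 ± 0.24, Esm1 in kidney, at 7.76 ± 0.13, Vegfa and Flt1 in muscle, at 10.53 ± 0.14 and 8.96 ± 0.15, and Pecam1 in spleen, at 9.82 ± 0.06. Pecam1 in spleen overlapped that in subcutaneous fat, 9.67 ± 0.44.

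**Figure D5:**
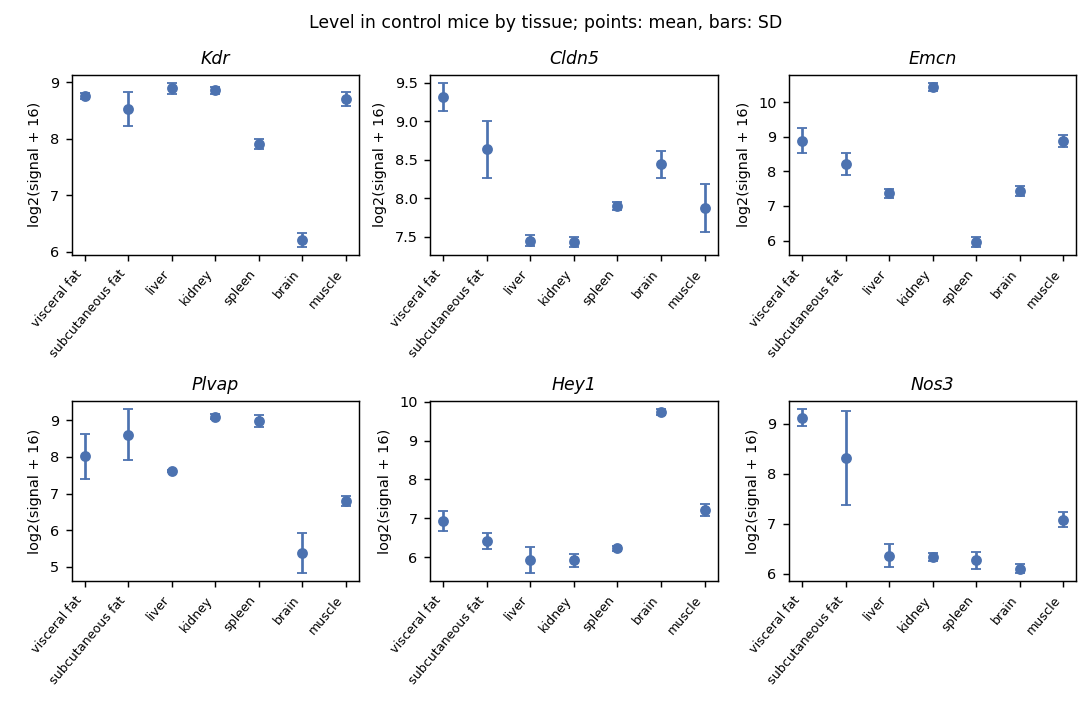
Level of 6 genes in control mice by tissue, as mean log2(signal + 16) with SD over 4 arrays (3 in liver), normalised over all arrays. Emcn peaks in kidney (10.44), Cldn5 and Nos3 in visceral fat (9.32 and 9.12), Hey1 in brain (9.73), and Plvap is lowest in brain (5.38).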

How the data were processed

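Total RNA of 54 samples from 7 tissues was measured on 1 array each. The deposited values are linear signal intensity per probe set, summarised with PLIER per the submitters' processing notes, which also name limma; versions and the genome build are not given in the sources used here. Array medians differed, so log2(signal + 16) was quantile normalised within each tissue, which assumes like distributions in both groups. Of 25917 probe sets, 21086 carry 1 symbol and the brightest per gene was used. The dimmest 40% by mean were left out. Groups were compared with limma 3.58.1 in R 4.3.3, Benjamini-Hochberg adjusted over all genes of a tissue, and effects of 2 tissues with a contrast over 4 group means and weights by tissue. The number of arrays limits the precision. Scripts were tested on simulated data. Alternatives covered scaling, pseudocounts of 1 and 64, the filter, probe set averaging, limma options, 1 fit of all arrays and leaving out each array. Members and lists were chosen with earlier results of these data known. Pathway and endothelial genes beyond the 36 were chosen from up to 4 per list and tissue, those of smallest p past the threshold, and not all of these are named. Of 268 list genes 240 were on the array.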

Additional observations from a re-analysis of the deposited data

Results flagged for a closer look

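For the called genes, each group of 4 arrays was checked gene by gene, 92 sets in all. In 8 of the 92 (8.7%), 1 array stood apart from the other 3, where chance alone gives about 1 in 20 for a single set. The sets share arrays and hold only called genes, so 8.7% cannot be weighed against that rate. In visceral fat, swim replicate 8 read 9.68 for Kdr where the other swim arrays read 9.49 to 9.50, and 10.72 for Cdh5 where they read 10.46 to 10.47. Swim replicate 5 read 7.24 for Sox17 against 7.30 to 7.32, and control replicate 2 read 9.02 for Egfl7 against 8.79 to 8.83. In kidney, control replicate 9 read 6.41 for Sox17 against 6.16 to 6.17, and swim replicate 13 read 10.86 for Emcn against 10.74 to 10.76. In spleen, swim replicate 32 read 7.43 for Kdr against 7.70 to 7.75, and control replicate 25 read 6.25 for Flt4 against 6.44 to 6.48.

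The swimming effect differed between tissues for 31 pairs of a gene and 2 tissues, by limma's contrast at an adjusted p under 0.05. For visceral fat and spleen 13 of 32 genes passed, where 13.6% of all genes did. For muscle and spleen 13 of 32 passed, where 13.3% did. For visceral fat and muscle 3 of 34 were higher and 2 lower, no more than the 14.7% of all genes. For the 2 fat depots 0 of 33 passed, as did 0% of all genes. The effect in visceral fat minus that in spleen was 1.18 for Robo4, 1.01 for Dll4, 0.97 for Kdr, 0.83 for Cdh5, 0.76 for Egfl7, 0.74 for Esam and 0.69 for Sox18. It was 0.67 for Flt1 and for Mmrn2, 0.66 for Tie1, 0.59 for Notch4, 0.55 for Vegfa and 0.43 for Erg. The effect in muscle minus that in spleen was 1.19 for Vwf, 1.04 for Robo4, 0.93 for Sox18, 0.88 for Eng, 0.87 for Cdh5 and 0.76 for both Flt4 and Mmrn2. It was 0.68 for Dll4, 0.62 for Plvap, 0.57 for Esam, 0.56 for Erg, 0.55 for Tie1 and 0.46 for Notch1. The effect in visceral fat minus that in muscle was 0.91 for Aplnr, 0.71 for Vegfa, 0.68 for Kdr, -0.67 for Angpt1 and -0.59 for Nos3.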

How the results depend on the processing

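With values as deposited, the genes of the set past the threshold numbered 5 in visceral fat, 21 in spleen, 1 in muscle and 0 in liver and kidney, and the differing effects 3 between muscle and spleen and 1 between visceral fat and muscle. With arrays centred on their medians, 0 passed in liver, 5 in muscle and 8 between muscle and spleen. Muscle gave 4 with no filter on dim probe sets, 15 with trend and robust options and 22 with array weights. Array weights gave 27 in subcutaneous fat and 11 in brain. Shares of all genes called under the alternative settings are not given here, so these counts have no background beside them. In 1 fit of all 54 arrays, 23 passed in subcutaneous fat, 5 in spleen, 4 in muscle and 0 in liver and kidney. Leaving out 1 array gave 15 to 19 in visceral fat, 8 to 10 in kidney, 7 to 13 in spleen, 0 to 13 in muscle, 0 to 16 in subcutaneous fat, 0 to 1 in liver and 0 in brain. The range was 11 to 17 for visceral fat against spleen, 9 to 15 for muscle against spleen, 4 to 7 for visceral fat against muscle and 0 to 10 for visceral against subcutaneous fat, the highest without subcutaneous control replicate 17. Of 908 checks of the 51 calls, 702 kept the call, 205 lost it and 1 turned, Nrp1 in spleen at -0.11 with values as deposited. The cause was not tested. No paired analysis was run: each array has its own replicate number, and the labels do not say which arrays came from the same mouse.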
